A study of Mus musculus with 7 samples.

Results

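The genes described here build and maintain the neuromuscular junction, the synapse through which a motor neuron excites a muscle fibre. They are Lrp4, Musk, Dok7, Rapsn, Ache, Colq, Etv5, Etv4, Ufsp1 and Prkar1a. They were chosen by name as gene rows that occur in the count tables of all 7 muscles, 10 of the 53083 genes shared by these tables. The rule uses no measured value, but the genes were chosen with earlier results of these data known. Agrin released by the nerve binds LRP4 on the fibre, LRP4 activates the receptor kinase MuSK, the adaptor Dok7 keeps MuSK active, and rapsyn then gathers acetylcholine receptors under the nerve ending. Acetylcholinesterase, anchored in the synaptic cleft by the collagen tail ColQ, ends each signal, and the ETS transcription factors Etv5 and Etv4 act in the few nuclei that lie under the synapse. In a muscle with one band of endplates, transcripts of such nuclei are concentrated in the stretch that carries the band.

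The study sequenced RNA from serial cryosections of the tibialis anterior, a muscle of the lower hind leg, of mice. Each section was extracted alone and primed with its own section barcode and a molecular identifier on polyadenylated RNA, so each muscle yields a profile along its length. The groups were 2 muscles labelled WT, 2 labelled Ctr and 3 labelled DMD, named after Duchenne muscular dystrophy, the disease of dystrophin loss. The column names of the tables carry pax7 for WT, hDMD for Ctr and mdx for DMD, mdx being a widely used dystrophin-deficient mouse. The labels used here give no strain, allele, age or sex, and nothing in them says whether each muscle is from another animal, so a p-value here speaks only of the spread among these muscles. The WT tables were counted on another gene annotation than the Ctr and DMD tables, so a difference between WT and the others cannot be told apart from one of processing, although the exons of all 10 genes were the same in both.

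In the GRCm38 coordinates of the tables, Lrp4 lies at chr2:91457511-91513779 and Rapsn at chr2:91035620-91045729, both on the plus strand. Musk lies at chr4:58285960-58374303 and Dok7 at chr5:35056766-35087839, also on the plus strand. Ache, at chr5:137287519-137294466, is followed after 163 bases on the same strand by Ufsp1, at chr5:137294629-137295665. Colq lies on the minus strand at chr14:31523082-31591343 and shares 6 exon overlaps with the predicted gene Gm49387 on that strand, so its counts are uncertain. Etv5 lies on the minus strand at chr16:22381309-22439719, Etv4 on the minus strand at chr11:101769742-101785371, and Prkar1a on the plus strand at chr11:109649405-109669656. For Etv5, 50.4% of the section values above 0 were not whole numbers, which means that reads were divided between places, and its level is uncertain for that reason.

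Promoter windows of 250 bases before to 50 bases after an annotated start, from RefSeq on GRCm38.p6, were matched for 6 of the 10 genes (Musk, Dok7, Ache, Etv5, Ufsp1 and Prkar1a), in 13 windows. The stretches below are shown because ETS factors and myogenic helix-loop-helix factors are the known regulators of synaptic genes, and because Etv5 and Prkar1a were the members that differed along the muscle. Chrne, the adult receptor subunit, is set beside them. All are written 5′ to 3′ in the direction of the gene, without bases that lie in an annotated exon, before 1 of the RefSeq starts of the gene, which need not be the start in the count tables. Capitals mark the N-box CCGGAA, which ETS factors bind, and the E-box CANNTG, each on either strand.
Musk, chr4:58285712-58285959, plus strand: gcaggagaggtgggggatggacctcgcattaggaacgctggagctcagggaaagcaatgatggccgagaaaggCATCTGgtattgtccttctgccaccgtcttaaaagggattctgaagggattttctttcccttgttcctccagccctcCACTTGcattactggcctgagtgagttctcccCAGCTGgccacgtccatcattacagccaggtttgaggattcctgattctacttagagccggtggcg
Dok7, chr5:35056516-35056765, plus strand: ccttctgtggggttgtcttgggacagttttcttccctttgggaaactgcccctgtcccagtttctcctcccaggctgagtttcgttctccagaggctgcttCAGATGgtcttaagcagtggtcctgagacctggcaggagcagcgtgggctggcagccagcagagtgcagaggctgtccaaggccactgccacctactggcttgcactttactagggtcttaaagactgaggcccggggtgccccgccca
Etv5, chr16:22439720-22439820, minus strand: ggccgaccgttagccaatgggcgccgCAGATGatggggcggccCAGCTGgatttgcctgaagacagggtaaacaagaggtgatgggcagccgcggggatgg
Prkar1a, chr11:109648773-109649022, plus strand: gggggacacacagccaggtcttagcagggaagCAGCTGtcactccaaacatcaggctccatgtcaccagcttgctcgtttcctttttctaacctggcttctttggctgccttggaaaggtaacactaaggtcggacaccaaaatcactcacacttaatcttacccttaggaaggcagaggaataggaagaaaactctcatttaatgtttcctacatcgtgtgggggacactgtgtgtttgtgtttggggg
Chrne, chr11:70619217-70619444, minus strand: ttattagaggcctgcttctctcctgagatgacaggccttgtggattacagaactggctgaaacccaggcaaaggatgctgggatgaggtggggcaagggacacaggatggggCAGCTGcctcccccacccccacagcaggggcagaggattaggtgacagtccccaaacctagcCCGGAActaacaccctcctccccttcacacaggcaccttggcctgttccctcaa

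The stretch of Chrne holds 1 N-box and 1 E-box. Those of Musk, Dok7, Etv5 and Prkar1a hold 3, 1, 2 and 1 E-boxes and no N-box. Over the whole windows, 1 of the 6 matched genes had an N-box, Prkar1a in window 5, at 7 bases before that start, and 5 had an E-box. Among all 32851 windows of the reference, 14.9% hold an N-box and 72.3% an E-box, so the matches are a description of these letters and not of sites in use.

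Total counts per muscle ran from 11316565 (DMD replicate 2) to 41699100 (DMD replicate 1), and 422 of 525 sections, 50 to 67 per muscle, were kept for having enough counts. Mitochondrial transcripts took 41.6% to 45.9% of the counts in the WT muscles and 25.7% to 34.3% in the others. The members were sparse. Summed over the 7 muscles, Lrp4 had 113 counts, Musk 144, Etv4 171, Colq 235, Ufsp1 364 and Dok7 618, against 1396 for Etv5, 1934 for Ache, 2027 for Rapsn and 12320 for Prkar1a. Prkar1a had a count in at least 96.9% of the kept sections of every muscle, while Lrp4 had one in 5.97% to 60.0% of them. Levels below are CPM of a whole muscle, its counts of a gene brought to a common library total with the TMM scaling of edgeR, and they are compared between muscles, not between genes. These are bulk sections, so fewer cells of a kind and less RNA per cell cannot be told apart.

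Ache and Colq, which together make the anchored esterase of the synaptic cleft, rose in the DMD muscles against Ctr. Ache was at 7.43 and 7.04 CPM in WT, 2.78 and 8.17 CPM in Ctr, and 16.6, 18.0 and 14.6 CPM in DMD. Every DMD muscle was above every other muscle, and the Ctr muscles differed from each other more than the DMD muscles did. The log2 fold change of DMD against Ctr was 1.60 ± 0.37 (approximate SE, adjusted p = 0.0271, edgeR's quasi-likelihood test). Colq was at 1.24 and 0.491 CPM in WT, 0.370 and 0.596 CPM in Ctr, and 2.18, 1.40 and 1.96 CPM in DMD. Every DMD muscle was again above every other muscle. The log2 fold change of Colq against Ctr was 1.98 ± 0.49 (adjusted p = 0.0326), but it rested on 6 and 7 counts in the Ctr muscles. These 2 were the members called, 2 of 10, where 12.7% of the 13746 genes tested were called in either direction and 7.17% rose. Neither call held without single muscles. Without Ctr replicate 1, Ache was at 0.995 (adjusted p = 0.152) and Colq at 1.64 (adjusted p = 0.251). Without DMD replicate 1 they were at 1.60 (adjusted p = 0.0669) and 1.85 (adjusted p = 0.0842). Ache was also not called without DMD replicate 2 (1.55, adjusted p = 0.0598), and Colq not without Ctr replicate 2 (2.32, adjusted p = 0.0746). Ache without Ctr replicate 2 was at 2.55, and with only Ctr and DMD in the fit it was not called (1.61, adjusted p = 0.0586).

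**Figure D1:**
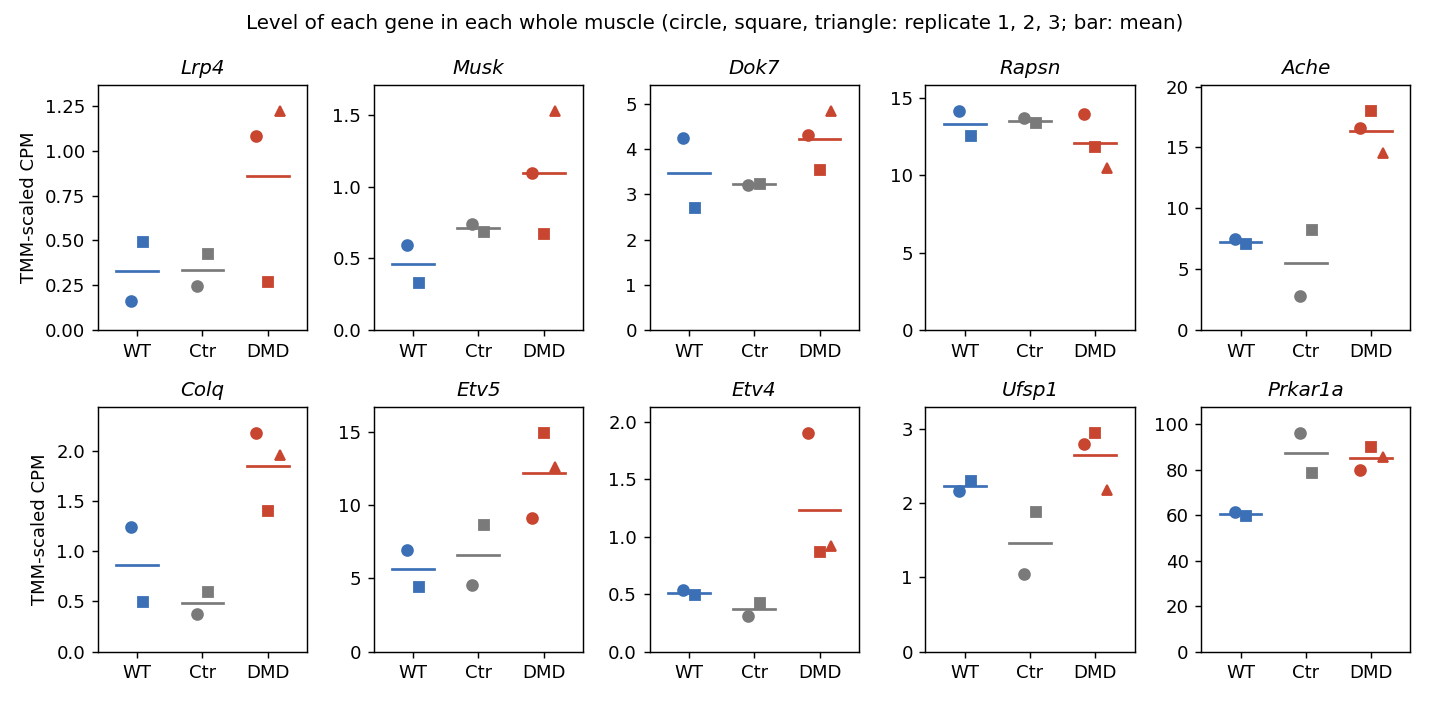
Level of the 10 genes in TMM-scaled CPM (vertical axes from 0, each gene on its own scale) in 2 WT, 2 Ctr and 3 DMD muscles. Points are muscles, with the replicate given by the symbol, and bars are group means. The 3 DMD points lie above all others for Ache, Colq, Etv5 and Etv4, and reach the lowest level for Rapsn.

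The organisers of the receptor cluster did not pass the test. Lrp4, the agrin receptor, was at 0.162 and 0.491 CPM in WT, 0.247 and 0.426 CPM in Ctr, and 1.08, 0.267 and 1.22 CPM in DMD. DMD replicate 2 lay within the range of the other muscles, and the log2 fold change against Ctr was 1.45 ± 0.72 (adjusted p = 0.206). Musk, the kinase, was at 0.592 and 0.328 CPM in WT, 0.740 and 0.681 CPM in Ctr, and 1.098, 0.668 and 1.53 CPM in DMD, with 4 to 64 counts behind each value. DMD and Ctr overlapped, at 0.64 ± 0.47 (adjusted p = 0.385). Dok7 was at 4.25 and 2.703 CPM in WT, 3.21 and 3.24 CPM in Ctr, and 4.32, 3.54 and 4.84 CPM in DMD, with a log2 fold change of 0.40 ± 0.27 (adjusted p = 0.350). The 2 Ctr values of Dok7 were close together and below all DMD values, while WT replicate 1 was within the DMD range. Rapsn, the scaffold of the receptors, had the most even level of these 4, at 14.2 and 12.5 CPM in WT, 13.7 and 13.4 CPM in Ctr, and 14.0, 11.8 and 10.5 CPM in DMD. Its log2 fold change against Ctr was -0.16 ± 0.20 (adjusted p = 0.631).

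Of the transcription factors, Etv5 was at 6.89 and 4.42 CPM in WT, 4.56 and 8.60 CPM in Ctr, and 9.07, 14.9 and 12.6 CPM in DMD. The lowest DMD muscle lay just above the highest Ctr muscle, and the log2 fold change of 0.89 ± 0.33 did not pass the test (adjusted p = 0.104). Etv4 was at 0.539 and 0.491 CPM in WT, 0.308 and 0.426 CPM in Ctr, and 1.90, 0.869 and 0.916 CPM in DMD. All DMD muscles were above the rest, at a log2 fold change of 1.81 ± 0.54, short of the threshold (adjusted p = 0.0536). Without DMD replicate 3, Etv4 was called at 2.04 (adjusted p = 0.0184). Etv4 and Lrp4 reached the level that the filter on low counts asks for (0.547 CPM before scaling, in at least 2 muscles) in DMD muscles only, so a difference was built into their being tested.

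Ufsp1, a peptidase gene known as a transcript of synaptic nuclei, was at 2.15 and 2.29 CPM in WT, 1.05 and 1.87 CPM in Ctr, and 2.80, 2.94 and 2.18 CPM in DMD. It was lowest in the Ctr muscles, while DMD replicate 3 lay between the WT muscles, and the log2 fold change of DMD against Ctr was 0.88 ± 0.33 (adjusted p = 0.108). Prkar1a encodes a regulatory subunit of protein kinase A that is enriched at the synapse and is also made throughout the body. It was at 61.4 and 59.6 CPM in WT, 96.2 and 78.7 CPM in Ctr, and 79.9, 89.9 and 85.5 CPM in DMD. Ctr and DMD overlapped (-0.04 ± 0.19, adjusted p = 0.910), and the WT muscles lay below both.

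Against WT, no member was called, where 15.2% of the 13746 genes tested were. By edgeR, 6 of the 10 members had an unadjusted p under 0.05, as had 4563 of the 13746 genes, and DESeq2 called 2 members. The log2 fold changes of DMD against WT were 1.17 ± 0.36 for Ache (adjusted p = 0.0539), 1.08 ± 0.34 for Etv5 (adjusted p = 0.0559), 1.06 ± 0.44 for Colq (adjusted p = 0.125) and 1.30 ± 0.50 for Etv4 (adjusted p = 0.103). Musk was at 1.22 ± 0.49 (adjusted p = 0.117) and Prkar1a at 0.49 ± 0.19 (adjusted p = 0.107). Between WT and Ctr no member was called either (0.364% of all genes were). There 1 member, Prkar1a, had an unadjusted p under 0.05, at a log2 fold change of WT against Ctr of -0.53 ± 0.21 (adjusted p = 0.221), and DESeq2 called 0 members. Over all genes, 2481 of 13746 had an unadjusted p under 0.05 in that comparison by edgeR. All 3 DMD muscles lay above all 4 others for 4 of the 10 members (Ache, Colq, Etv5 and Etv4), a pattern that 14.5% of the genes tested showed. Of these, Etv4 passed the filter on low counts through DMD muscles only, so its place in this count was built in. The comparisons of DMD with Ctr and with WT share the DMD muscles.

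Of the 4 acetylcholine receptor subunits measured beside the members, 3 rose against Ctr. Chrna1, the subunit made by synaptic and by denervated or growing fibres, was at 5.01 and 3.93 CPM in WT, 4.32 and 5.70 CPM in Ctr, and 40.6, 41.4 and 28.0 CPM in DMD. It rose by a log2 fold change of 2.88 ± 0.27 against Ctr (adjusted p = 0.00186), and Chrnb1 rose by 1.67 ± 0.24 (adjusted p = 0.00694). Chrne, the subunit of the mature receptor, rose by 1.17 ± 0.34 (adjusted p = 0.0495), while Chrnd was at 2.02 ± 0.63 (adjusted p = 0.0603). No test set the members against these subunits.

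**Figure D2:**
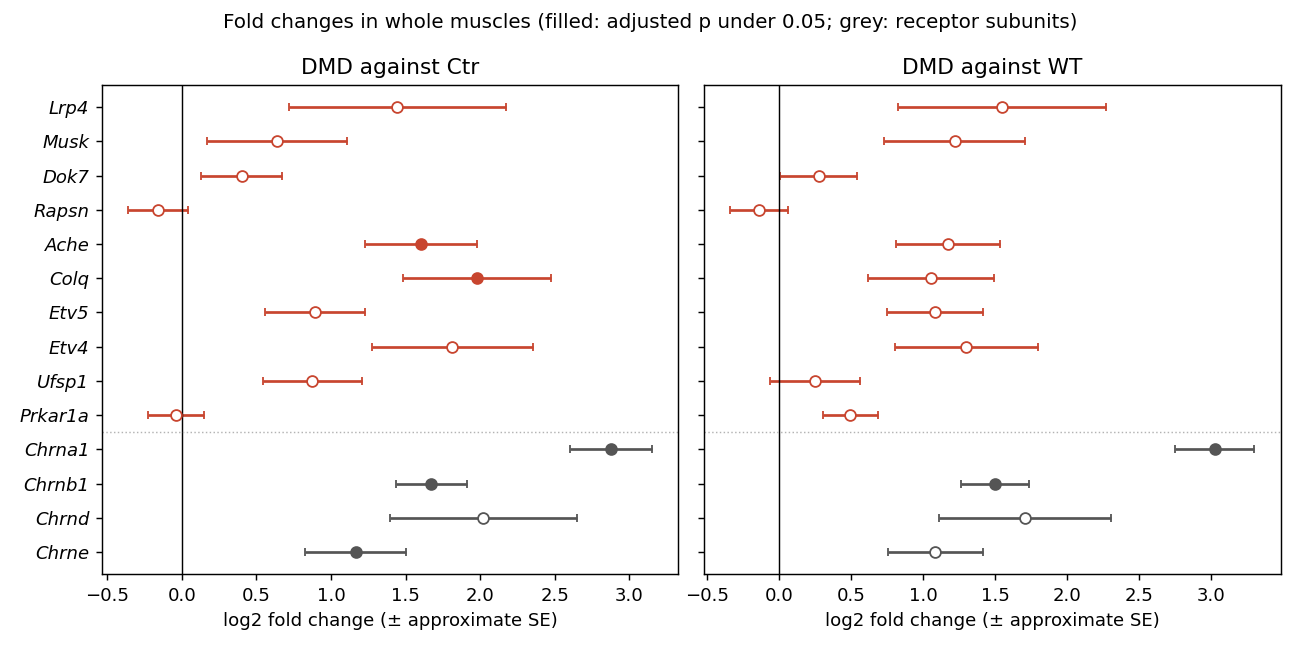
Log2 fold changes of DMD against Ctr and of DMD against WT in whole muscles (horizontal axes), with approximate standard errors, for the 10 members (red) and 4 receptor subunits (grey). Filled points have an adjusted p under 0.05. Among the members these are Ache and Colq against Ctr and none against WT, while Chrna1 has the largest change of the genes plotted.

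Other genes of the pathway were read from 5 lists. Of 17 genes of agrin and MuSK signalling tested against Ctr, 2 rose in DMD and 1 fell. For this and the other lists, the share over all 13746 genes tested was 12.7% called in either direction and 7.17% risen. A count near that share is not read as a result about a list. Pak1, a kinase of the actin cytoskeleton, rose by a log2 fold change of 1.69 ± 0.31 (adjusted p = 0.0145), from 7.90 and 15.4 CPM in Ctr to 29.0, 38.1 and 45.1 CPM in DMD. Src, a kinase that acts on the receptor, rose by 1.06 ± 0.27 (adjusted p = 0.0353). Clasp2, which captures microtubules at the synapse and is named after its value was seen, fell by 0.82 ± 0.22 on that scale (adjusted p = 0.0380). It was at 10.3 CPM in both WT muscles, 16.0 and 19.0 CPM in Ctr and 8.90, 12.3 and 8.68 CPM in DMD, so Ctr alone was high, and against WT it was at -0.06 ± 0.22 (adjusted p = 0.875). Agrin itself was at 1.18 and 0.901 CPM in WT, 0.740 and 0.766 CPM in Ctr and 0.978, 1.07 and 0.872 CPM in DMD for Agrn. None of the 6 genes tested for synaptic transcription and neuregulin receptors was called against Ctr, 1 of them having an unadjusted p under 0.05 by edgeR, and DESeq2 called 0. Of all 13746 genes, 4240 had such a p. Of 11 genes of synaptic matrix and cytoskeleton tested, 1 rose, Hspg2, whose product perlecan binds ColQ in the basal lamina (1.28 ± 0.30, adjusted p = 0.0272).

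Of 6 tested markers of endplate nuclei, 2 rose against Ctr, where 7.17% of the 13746 genes tested rose. Ncam1, an adhesion molecule of the synapse and of growing fibres, rose by 2.51 ± 0.61 (adjusted p = 0.0300), and Hs6st2, a heparan sulphate sulphotransferase, by 1.60 ± 0.44 (adjusted p = 0.0443). Outside the DMD muscles, Hs6st2 reached the level that the filter on low counts asks for in too few muscles to pass. A difference was thus built into Hs6st2 being tested. Among 6 genes known to respond to denervation, 3 rose and 1 fell. Chrng, the fetal receptor subunit, had 0 counts in both Ctr muscles and 4.72, 4.28 and 1.26 CPM in DMD, and with the floor set at 3 counts for the whole Ctr group it was at least 35.6-fold higher. Chrng passed the filter on low counts through DMD muscles only, so a difference was built into its being tested. Runx1 (3.28 ± 0.56, adjusted p = 0.0113) and Myog (3.26 ± 0.80, adjusted p = 0.0312), transcription factors of denervated and growing fibres, also rose and are named after their values were seen. Dach2, a repressor of the myogenin response, went the other way. It was at 2.53 and 2.46 CPM in WT and 1.85 and 1.53 CPM in Ctr, and it had 2 counts over the 3 DMD muscles, a ratio of Ctr to DMD of 82.6 (95% exact interval 21.7 to 702, counting error only). The Dach2 call against Ctr had an adjusted p of 0.00196, but Dach2 passed the filter through WT and Ctr muscles only, so a difference was built in here too.

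Markers of other cells moved with these groups. Over all 13746 genes tested, 12.7% were called against Ctr in either direction and 7.17% rose. The summed level of 5 regenerating-fibre genes was 99.7 to 170 CPM in WT, 157 to 174 CPM in Ctr and 306 to 985 CPM in DMD, and 4 of the 5 rose against Ctr. Mymk, one of them, was at 0 in at least 1 muscle. It passed the filter on low counts through DMD muscles only, so a difference was built into its being tested. Actc1 made up most of the regenerating-fibre sum, at 161 and 91.4 CPM in WT, 164 and 140 CPM in Ctr and 220, 838 and 512 CPM in DMD. Myh8 overlapped between Ctr (4.26 and 9.45 CPM) and DMD (4.89, 18.2 and 5.45 CPM). The 5 macrophage genes summed to 37.8 to 46.0 CPM in WT, 25.0 to 43.1 CPM in Ctr and 114 to 661 CPM in DMD, and 5 of 5 rose. The 7 Schwann cell genes summed to 66.4 to 68.0 CPM in WT, 52.4 to 67.9 CPM in Ctr and 41.2 to 47.9 CPM in DMD. Of these, 1 rose and 2 fell against Ctr. The 3 tendon genes summed to 16.3 to 25.8 CPM in WT, 2.90 to 5.36 CPM in Ctr and 13.9 to 19.7 CPM in DMD, and 3 of 3 rose against Ctr. Of 3 fibro-adipogenic genes 1 rose, and of 2 endothelial and 4 mature-fibre genes none was called by edgeR, 1 of each list having an unadjusted p under 0.05. Of all 13746 genes, 4240 had such a p. DESeq2 called 1 of the mature-fibre and 0 of the endothelial genes. The 4 mature-fibre genes, defining for the tissue, summed to 56409 to 57178 CPM in WT, 54818 to 69491 CPM in Ctr and 38346 to 52646 CPM in DMD. Every DMD muscle thus lay below every other muscle in this sum. The part of these cells in the changes of Ache and Colq was not tested.

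Along the muscle, Etv5 and Prkar1a were highest in the central sections. The kept sections of each muscle, in the order of the table columns, were divided into 3 equal parts, and the central part was compared with both outer parts together in all 7 muscles. The column order is taken as the order along the muscle, which the labels used here do not state. Prkar1a was higher in the centre in 7 of 7 muscles, at 76.2 against 49.7 CPM in WT replicate 1 and 70.5 against 53.0 CPM in WT replicate 2. In Ctr it was at 111 against 86.8 CPM and 101 against 67.5 CPM. The DMD muscles had 88.7 against 74.3, 120 against 73.3 and 94.7 against 80.8 CPM. The centre was above the outer parts by 1.17-fold to 1.63-fold, a log2 fold change of 0.45 ± 0.06 over the groups (adjusted p = 4.5e-05), and the call held without any single muscle.

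Etv5 was also higher in the centre in 7 of 7 muscles. It had 7.26 against 6.57 CPM and 7.71 against 1.95 CPM in the WT muscles, and 7.10 against 3.15 and 13.1 against 6.17 CPM in the Ctr muscles. In the DMD muscles it had 9.87 against 8.56, 16.7 against 13.7 and 15.1 against 11.1 CPM. The ratios were 2.25 and 2.12 in Ctr and 1.15, 1.22 and 1.36 in DMD, with WT replicate 1 at 1.11 and WT replicate 2 at 3.95. The log2 fold change was 0.70 ± 0.13 (adjusted p = 0.00392). Without WT replicate 1 it was 1.14. It was not called without WT replicate 2 (0.51, adjusted p = 0.0647), Ctr replicate 1 (0.69, adjusted p = 0.0562) or Ctr replicate 2 (0.71, adjusted p = 0.152). Etv5 and Prkar1a were 2 of 10 members called, where 0.288% of 12861 genes were called in this comparison.

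**Figure D3:**
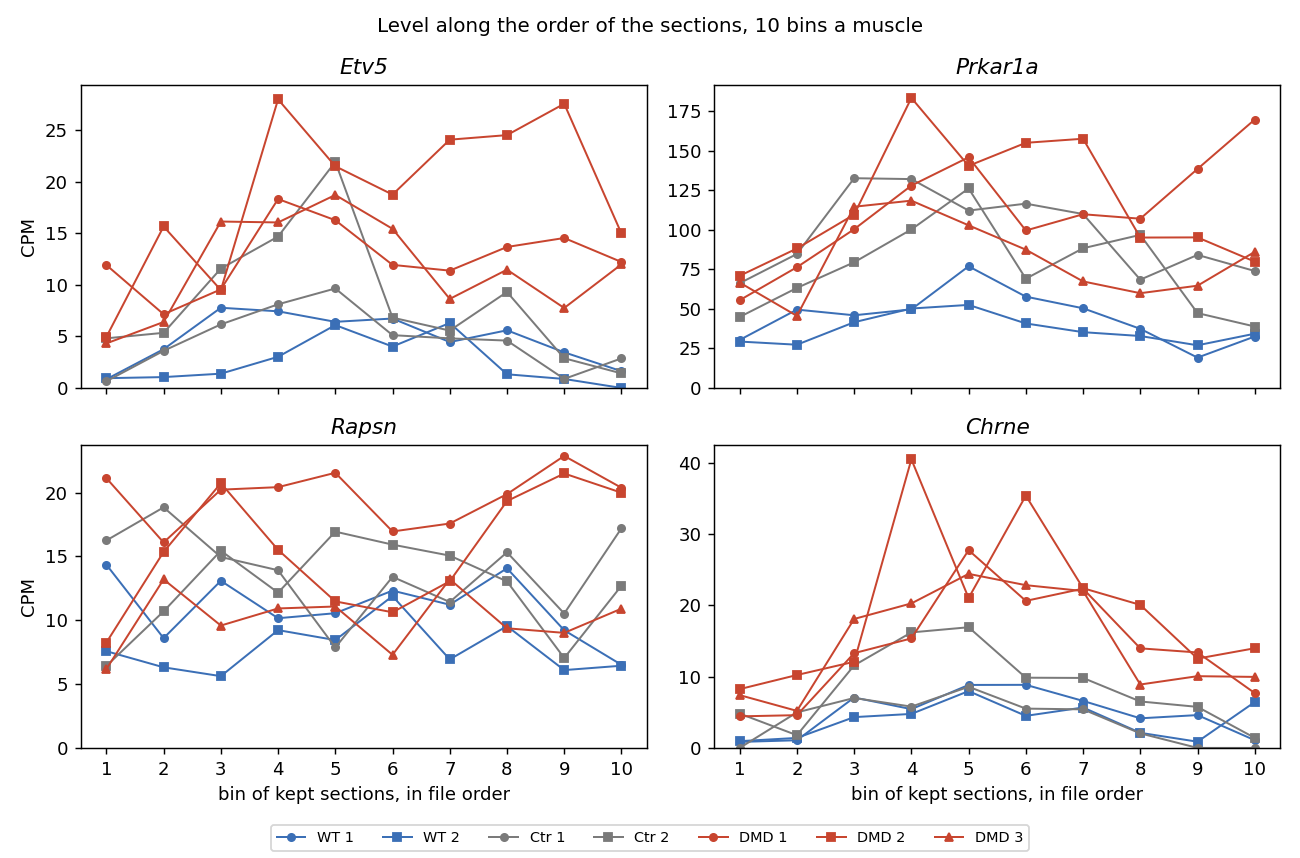
Level in CPM not scaled by TMM (vertical axes from 0) of Etv5, Prkar1a, Rapsn and the receptor subunit Chrne in 10 bins of the kept sections of each muscle, in column order (horizontal axes). The TMM factors ran from 0.669 (WT replicate 2) to 1.41 (DMD replicate 1), so heights of different muscles are not on the scale of the whole-muscle levels. Lines are muscles, coloured by group. Etv5, Prkar1a and Chrne have most of their highest bins in the middle of the order, and Rapsn has no common peak.

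In 10 bins of sections per muscle, with CPM not scaled by TMM, the highest bin of Etv5 was one of bins 4 to 7 in 6 of 7 muscles, that of Prkar1a in 5 and that of Chrne in 7. In Ctr replicate 2, Etv5 went from 4.81 CPM in the first bin to 21.9 CPM in bin 5 and 1.41 CPM in the last. In WT replicate 1 it went from 0.844 to 6.42 and 1.63 CPM in the same bins. The last bin held 12.2, 15.0 and 12.0 CPM of Etv5 in the DMD muscles, above the 1.63 and 0 CPM in WT and the 2.87 and 1.41 CPM in Ctr. The first bins overlapped, at 11.9, 4.95 and 4.32 CPM in DMD and 0.650 and 4.81 CPM in Ctr. The centre effect was then compared between DMD and Ctr, a comparison added after the data were seen. No member was called by edgeR, where 0.0233% of genes were. An unadjusted p under 0.05 was found for 538 of 12861 genes, 1 member among them. This member was Etv5, at -0.82 ± 0.29 (unadjusted p = 0.00829, adjusted p = 1). For Prkar1a in DMD replicate 1 the highest bin was the last, at 169.9 CPM.

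The other 8 members were not called in the centre. Ache was at 0.40 ± 0.13 (adjusted p = 0.441), higher in 4 of 7 muscles, and was called with a wider centre (0.53, adjusted p = 0.0434). Ufsp1 was at 0.43 ± 0.22 (adjusted p = 0.862) and Colq at 0.55 ± 0.32 (adjusted p = 0.896). Dok7 was at 0.08 ± 0.16 and Rapsn at -0.01 ± 0.10 (both adjusted p = 1). Musk was at -0.58 ± 0.38 (adjusted p = 0.941). Chrne, by contrast, rose in the centre by 1.04 ± 0.11 (adjusted p = 2.61e-07, 7 of 7 muscles) and Chrna1 by 0.65 ± 0.12 (adjusted p = 0.00370, 6 of 7 muscles). Of the marker lists, 2 of 7 Schwann cell genes were higher in the centre, among them Mbp (0.36 ± 0.07), as was 1 of 3 fibro-adipogenic genes, Lum (0.47 ± 0.10). The tendon gene Fmod was lower (-1.27 ± 0.14). The part of these cells in the difference of Etv5 and Prkar1a was not tested. None of the genes on the 5 pathway lists was called here by edgeR, while 2 of 17 genes of MuSK signalling and 2 of 6 markers of endplate nuclei had an unadjusted p under 0.05. Of all 12861 genes, 747 had such a p.

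Sections rich in receptor transcripts were then set against the rest. In each muscle the 20% of sections with the highest mean score of Chrna1, Chrnb1, Chrnd and Chrne were taken, a choice that uses no member. Prkar1a was higher in these sections in 7 of 7 muscles. It was at 70.0 against 60.2 and 75.3 against 56.7 CPM in WT, 102.5 against 94.6 and 104.7 against 72.7 CPM in Ctr, and 89.5 against 78.8, 106 against 85.3 and 102.3 against 82.4 CPM in DMD. Within a muscle the kinds of section differed by 1.08-fold to 1.44-fold, and the log2 fold change was 0.29 ± 0.05 (adjusted p = 0.0194). It was 1 of 10 members called, where 0.0785% of 12739 genes were. The 4 genes called higher were Prkar1a and the subunits Chrna1, Chrnd and Chrne of the score itself. The call was lost without WT replicate 1 (0.33, adjusted p = 0.141), WT replicate 2 (0.27, adjusted p = 0.224), Ctr replicate 2 (0.24, adjusted p = 0.661) or DMD replicate 3 (0.30, adjusted p = 0.0604). It was lost as well with the top 10% of sections (0.28, adjusted p = 0.840).

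**Figure D4:**
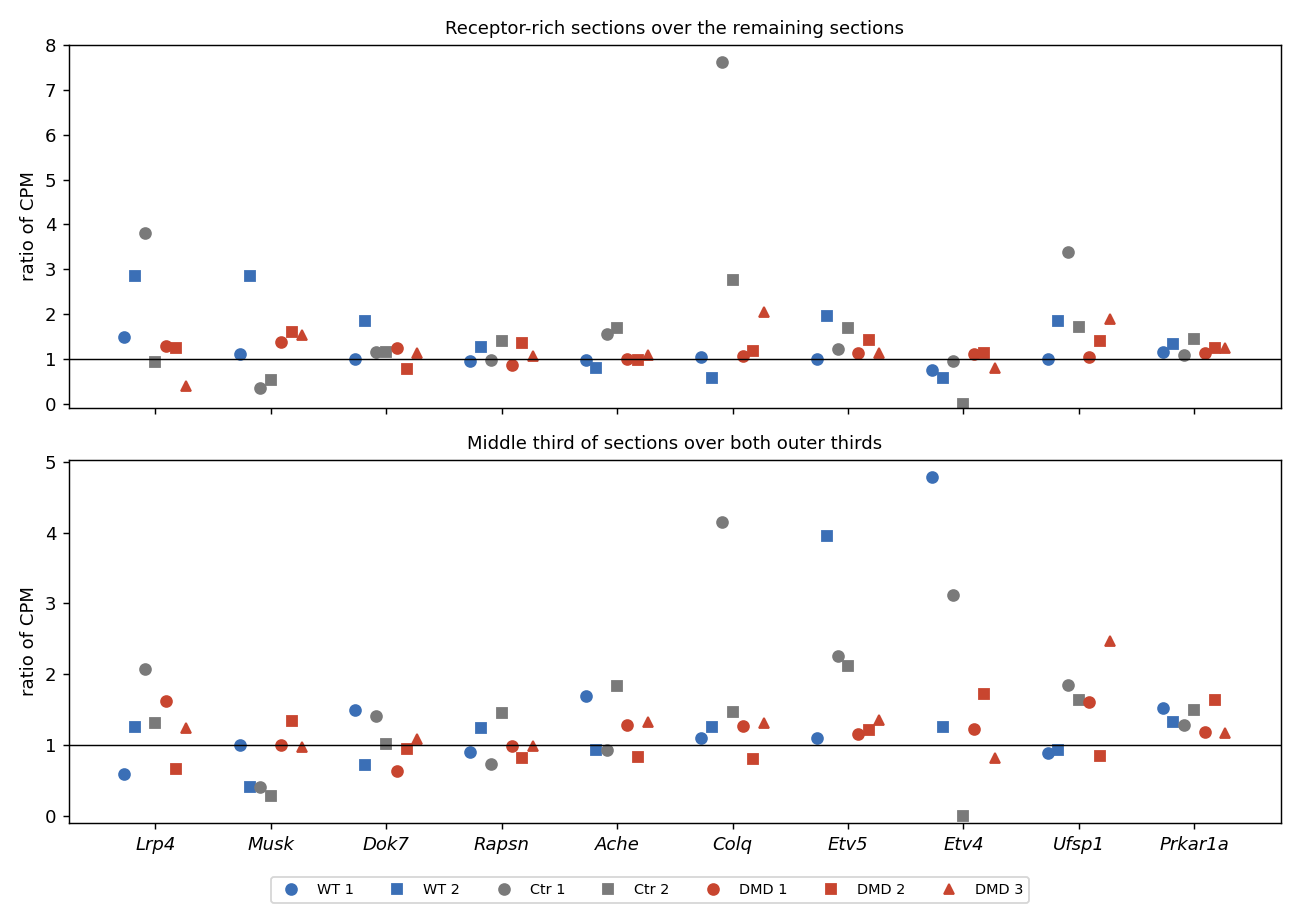
Ratio of the level in receptor-rich sections to that in the remaining sections (upper panel) and of the central sections to both outer parts (lower panel), per muscle, for the 10 members. The line marks a ratio of 1. All 7 points of Prkar1a lie above it in both panels, and those of Etv5 in the lower panel, while genes with few counts such as Colq, Lrp4, Musk and Etv4 scatter widely.

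The remaining members were not called in receptor-rich sections. Ufsp1 was at 0.65 ± 0.23 (adjusted p = 0.596) and Etv5 at 0.38 ± 0.13 (adjusted p = 0.572), each higher in 6 of 7 muscles, and Colq was at 0.79 ± 0.35 (adjusted p = 0.668). Rapsn, whose product binds the receptor, was at 0.10 ± 0.10 (adjusted p = 0.874). Over all 7 muscles, no gene on the 5 pathway lists was called there by edgeR, while 1 of 17 genes of MuSK signalling and 2 of 6 markers of endplate nuclei had an unadjusted p under 0.05. Of all 12739 genes, 920 had such a p. The tendon gene Fmod was lower in these sections (-0.92 ± 0.15, adjusted p = 0.00571), and no Schwann cell, macrophage or regenerating-fibre gene was called by edgeR, 2 of 7 Schwann cell genes having an unadjusted p under 0.05. In the DMD muscles alone, the macrophage genes Cd68 (0.71 ± 0.12, adjusted p = 0.0102) and Lgals3 (0.52 ± 0.11, adjusted p = 0.0332) and the regenerating-fibre gene Tnnt2 (0.33 ± 0.07, adjusted p = 0.0395) rose in receptor-rich sections, 2 of 5 and 1 of 5 of their lists, as did Myog of the denervation list (0.63 ± 0.11, adjusted p = 0.0133). In this reading of the DMD muscles, 47 of 12739 genes were called, 44 of them higher, and no member was. Lgals3 was at 216 against 120.0 CPM in DMD replicate 1, 103.6 against 101.5 CPM in DMD replicate 2 and 16.4 against 11.4 CPM in DMD replicate 3. Cd68 was at 65.1 against 34.2, 25.6 against 19.4 and 3.67 against 3.74 CPM in DMD replicates 1, 2 and 3. It thus did not rise in DMD replicate 3, while Tnnt2 and Myog were higher in every DMD muscle. The part of these cells in the values of the members was not tested.

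The receptor-rich effect was compared between DMD and Ctr. No member was called by edgeR, as was no other of the 12739 genes tested (0%). An unadjusted p under 0.05 was found for 714 of these genes, 1 member among them. This member was Ache, at -0.70 ± 0.27 (unadjusted p = 0.0141, adjusted p = 0.870). In Ctr, Ache was at 3.86 against 2.49 and 12.1 against 7.11 CPM in receptor-rich and remaining sections. In DMD it was at 16.7 against 16.8, 17.7 against 18.0 and 15.7 against 14.6 CPM, so its level there was nearly the same in both kinds of section. In WT, not part of this comparison, Ache was at 7.41 against 7.64 and 6.16 against 7.77 CPM, so it was not higher in receptor-rich sections there either. Colq was at -1.70 ± 0.83 (adjusted p = 0.870) and Musk at 1.76 ± 0.94 (adjusted p = 0.895). The split of sections was itself less sharp in DMD. The ratio of receptor-rich to remaining sections for Chrna1 was 2.40 and 2.81 in Ctr and 1.28, 1.37 and 1.35 in DMD. For Chrne it was 2.00 and 2.81 in Ctr and 1.13, 1.40 and 1.82 in DMD, while for Chrnb1 the groups overlapped. The part of this in the values of Ache, Colq and Musk was not tested.

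The rise of Ache and Colq was also read within each kind of section. In the remaining sections, DMD exceeded Ctr by a log2 fold change of 1.82 ± 0.36 for Ache (adjusted p = 0.0178) and 2.63 ± 0.59 for Colq (adjusted p = 0.0255), 2 of 10 members where 11.6% of 13072 genes were called. Neither was called there without Ctr replicate 1 (Ache 1.21, adjusted p = 0.116, and Colq 1.99, adjusted p = 0.226), and Colq not without DMD replicate 1 (2.41, adjusted p = 0.0647). In the receptor-rich sections the values were 1.13 ± 0.39 for Ache (adjusted p = 0.0914) and 1.03 ± 0.65 for Colq (adjusted p = 0.343). There 0 of 8 members tested were called by edgeR, where 7.82% of 10638 genes were called. An unadjusted p under 0.05 was found for 2 of these members and for 2740 of the 10638 genes. Colq had 6 and 7 counts in the whole Ctr muscles, 66.7% and 42.7% of them in receptor-rich sections. Few were thus left for its Ctr level in the remaining sections. The receptor-rich sections held 18.7% to 26.1% of the counts of a muscle. A call in only the remaining sections is therefore not read as a difference between the kinds of section. Lrp4 and Etv4 did not pass the filter in the receptor-rich sections. Without Ctr replicate 2, Ache was called there, at 2.10 (adjusted p = 0.0248).

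Section by section, the members hardly moved together. Etv5 and Prkar1a had the highest correlation of the 45 pairs, a median Pearson r of 0.39 over the 7 muscles (0.28 to 0.52), and Rapsn with Musk, its partner, had 0.06 (-0.17 to 0.20). Prkar1a followed the receptor score with a median r of 0.48 (0.28 to 0.70) and Etv5 with 0.27 (0.13 to 0.37), while the other members had medians of 0.06 to 0.25. All genes of a section share its library and depth, and in counts this sparse a weak correlation is no finding. Neighbouring sections had similar levels of Prkar1a (median r 0.47) and Etv5 (0.26), less so of Rapsn (0.07) and Dok7 (0.00). The mean score of the 10 members had a median r of 0.21 with the logarithm of the section total and 0.33 with the Schwann cell score. The receptor score, which chose the receptor-rich sections, had 0.35 (0.09 to 0.56) with the logarithm of the section total. With the score of the regenerating-fibre genes it had a median r of 0.29 (0.04 to 0.71). In DMD replicates 1, 2 and 3 this r was 0.71, 0.37 and 0.66. The part of depth and of regenerating fibres in the receptor-rich comparison was not tested.

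Of 4651 genes with at least 5 CPM in every muscle, the 8 most like the member score along the sections included Cxcl14, Mbp, Col15a1, Psap, Pcbp2, Fth1 and Nes. Their mean r over the 7 muscles ran from 0.39 for Cxcl14 to 0.31 for Nes, which is weak. Mbp encodes a protein of myelin, Col15a1 a collagen of basement membranes and Nes an intermediate filament. For Cxcl14 the r within a muscle ran from 0.13 in DMD replicate 2 to 0.65 in DMD replicate 1, and for Mbp from 0.25 in Ctr replicate 1 to 0.56 in DMD replicate 3.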

How the data were processed

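Per the labels' protocols, RNA of single cryosections was reverse transcribed with section barcodes and molecular identifiers. The submitters' processing notes name STAR 2.7.7a as aligner and GRCm38 as build. Per the file headers, featureCounts 2.0.1, counting by strand, gave the deposited values, which are expected counts per gene and section (20.1% to 26.1% of values above 0 were not whole); whether they count molecules is not given in the sources used here. Sections with at least 1000 counts and 20% of the muscle median were kept and summed per muscle or region, and the sums were rounded. edgeR 4.0.16 in R 4.3.3 (filterByExpr, TMM, glmQLFit, glmQLFTest) was fitted to all genes of all 7 muscles, with Benjamini-Hochberg adjustment at 0.05; region fits carried muscle as a term. The ± after a log2 fold change is |log2 fold change| divided by the root of F. The script was tested on simulated data. Section scores are mean z-scores of log2(CPM + 10). Alternatives were DESeq2 1.42.0, RLE scaling, no filters, other sets of sections, a replicate block and leaving out each muscle; joining WT with Ctr and comparing the centre effect between groups were added after the data were seen. Named were all members, the receptor subunits, the up to 2 called genes per list with the largest change, and the 8 genes most like the members. Members and lists were chosen with earlier results of these data known. Some genes that the rule would name are not reported here.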

Additional observations from a re-analysis of the deposited data

Results flagged for a closer look

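For 3 members, the 2 WT muscles went one way and the 2 Ctr muscles the other between regions of the muscle, and this difference between WT and Ctr was not tested. The share of all genes that split in this way was not counted. The number of members is therefore not read as a result. For Musk, the ratio of receptor-rich to remaining sections was 1.11 and 2.84 in WT replicates 1 and 2 and 0.347 and 0.526 in Ctr replicates 1 and 2, on 4 to 12 counts per muscle. For Ache, the same ratio was 0.970 and 0.793 in WT and 1.55 and 1.70 in Ctr. For Ufsp1, the ratio of the central to the outer sections was 0.884 and 0.940 in WT and 1.84 and 1.63 in Ctr, on 17 to 40 counts per muscle.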

How the results depend on the processing

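The number of members called in DMD against Ctr, 2, was 4 with no filter on low counts, 4 with Ctr and WT joined (0 to 2 leaving out each muscle of that fit), 1 with only these groups in the fit and 0 to 3 leaving out each muscle in turn. Against WT, 0 became 2 with no filter, 2 with only these groups in the fit, 2 with DESeq2 and 0 to 2 leaving out each muscle. In receptor-rich sections, DMD against Ctr gave 1 with no filter, 1 with the score from Chrnd and Chrne and 0 to 1 leaving out each muscle; in the remaining sections it gave 4 with no filter and 0 to 4. The receptor-rich call became 0 with the top 10% of sections and 0 to 1 leaving out each muscle, and the centre, 2, gave 3 with a wider centre and 1 to 2 leaving out each muscle. Prkar1a in DMD against Ctr, near 0, was at 0.0032 with no filter, 0.22 with the groups joined and -0.19 to 0.11 leaving out each muscle. RLE scaling changed no count of members.

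With the replicate number as a block, 4 members were called against Ctr (Ache, Colq, Etv4 and Ufsp1) and 3 against WT (Ache, Etv5 and Etv4). The labels do not say that numbers pair muscles. Deviations from the group mean of same-numbered muscles correlated by 0.034 (WT and Ctr), 0.0087 and 0.103 (WT and DMD) and 0.146 and 0.230 (Ctr and DMD). In a group of 2 muscles the deviations mirror each other, so both pairs of WT and Ctr must give the same value. Muscles of other numbers gave -0.034 (WT and Ctr), -0.103 to 0.069 (WT and DMD) and -0.230 to 0.053 (Ctr and DMD). The mirroring partly fixes these values, so they do not settle the pairing.

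Over all genes, calls of DMD against Ctr numbered 1740, with no filter 2999, with the block 3890, with only these groups 683, and 56 (without Ctr replicate 1) to 3425 (without DMD replicate 3). Against WT they numbered 2085, with no filter 3208, with the block 4063, and 68 to 3595. WT against Ctr had 50, with no filter 860, with the block 798, with only these groups 586, by DESeq2 472, and 2 to 97. Receptor-rich sections had 10, with no filter 33, with the top 10% 3, with smoothing over 3 sections 5, and 3 to 14. DMD against Ctr in them had 832, with no filter 1667, with the top 10% 439, and 27 to 1870; in the remaining sections 1518, with no filter 2711, and 48 to 3083. The centre had 37, with no filter 58, with a wider centre 59, and 15 to 57. The receptor-rich effect between DMD and Ctr had 0, and with no filter 3, and the centre effect had 3, and 1 to 3. Leaving out 1 of 2 muscles of a group assumes that the other varies like the rest. Few counts limit Lrp4, Musk, Etv4 and Colq in every comparison; the cause of the changes in counts of calls was not tested.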
